A study of Homo sapiens with 4 samples.

Results

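The type I interferon response was described in SKOV3, a long-established line of human ovarian carcinoma cells, through 35 named genes that interferon induces or that carry its signal. For 34 of them the deposited array table held a probe set, the group of short probes that reports 1 transcript, annotated to that gene alone. STAT2 is not analysed here. These 34 genes stood among 19775 genes with such a probe set. The study compared SKOV3 cells labelled control, 2 arrays, with SKOV3 cells given rhSTIP1, 2 arrays. The name rhSTIP1 was taken to mean recombinant human STIP1, a cochaperone that links HSP70 to HSP90 and is also found outside cells. The 4 arrays carry total RNA of the same line, and the labels name no other agent, dose or time. Nor do they state if 1 group's arrays were separate cultures, and p-values here reflect only how far these arrays differ, which may be technical.

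Type I interferons bind a receptor whose kinases, JAK1 and TYK2, activate STAT proteins. STAT2 then joins IRF9 and a second STAT protein in a complex that binds a DNA element called the interferon-stimulated response element, or ISRE, and starts transcription of the antiviral genes. A related element, the gamma-activated site or GAS, binds STAT dimers. Many carcinoma lines keep part of this programme running without added interferon, and some of its genes are also reached by other signals.

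Promoter stretches are shown first because the ISRE is what most of these genes share outside the array values. RefSeq promoter windows on GRCh38.p14, each running from 250 bases before to 50 bases after a start site, were found for 27 of the 34 measured genes, which gave 35 windows, several starts being listed for 7 genes. The ISRE core was searched as GAAANNGAAA and the GAS core as TTCNNNGAA, on both strands and with overlapping matches counted. The ISRE core was present in 25 of the 35 windows (71.4%) and in 1255 of all 35116 windows of the same length (3.57%). The GAS core was present in 11 of the 35 (31.4%) and in 7.66% of all windows, and 5 of its 12 matches overlapped an ISRE match. Matches were counted by window, so a site shared by overlapping windows of a gene, as in IFI27 and IFI44, counts in each. By gene, 21 of 27 held the ISRE core in at least 1 window. The 6 whose windows did not hold these letters were IRF1, IRF9, HERC6, OAS1, IFI35 and XAF1.

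The stretches below come from genes whose values are given later, read 5′ to 3′ on the gene's strand, with the matched core in capitals. ISG15 and BST2 hold overlapping cores, IFIT1 and IFI27 hold a pair separated by a few bases, and IFI6 is shown with the core farthest from the start site, of 3. The windows of OAS3 and IFI44L each hold another ISRE core, nearer the start site, that is not shown.
ISG15, chr1:1013372-1013411, plus strand: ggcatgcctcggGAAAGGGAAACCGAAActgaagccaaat
BST2, chr19:17405733-17405772, minus strand: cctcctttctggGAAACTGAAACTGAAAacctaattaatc
IFIT1, chr10:89392495-89392541, plus strand: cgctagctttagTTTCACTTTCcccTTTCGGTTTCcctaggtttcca
IFI27, chr14:94110616-94110662, plus strand: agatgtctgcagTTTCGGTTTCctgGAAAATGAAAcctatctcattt
IFI6, chr1:27672327-27672360, minus strand: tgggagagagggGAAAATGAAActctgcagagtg
OAS3, chr12:112938319-112938352, plus strand: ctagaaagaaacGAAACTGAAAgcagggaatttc
ISG20, chr15:88638935-88638968, plus strand: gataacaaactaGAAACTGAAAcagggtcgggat
IFI44L, chr1:78620272-78620305, plus strand: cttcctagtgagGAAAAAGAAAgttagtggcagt
For IRF1, whose windows held no ISRE core, the GAS core is shown.
IRF1, chr5:132490877-132490909, minus strand: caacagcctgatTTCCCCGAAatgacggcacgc

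**Figure D1:**
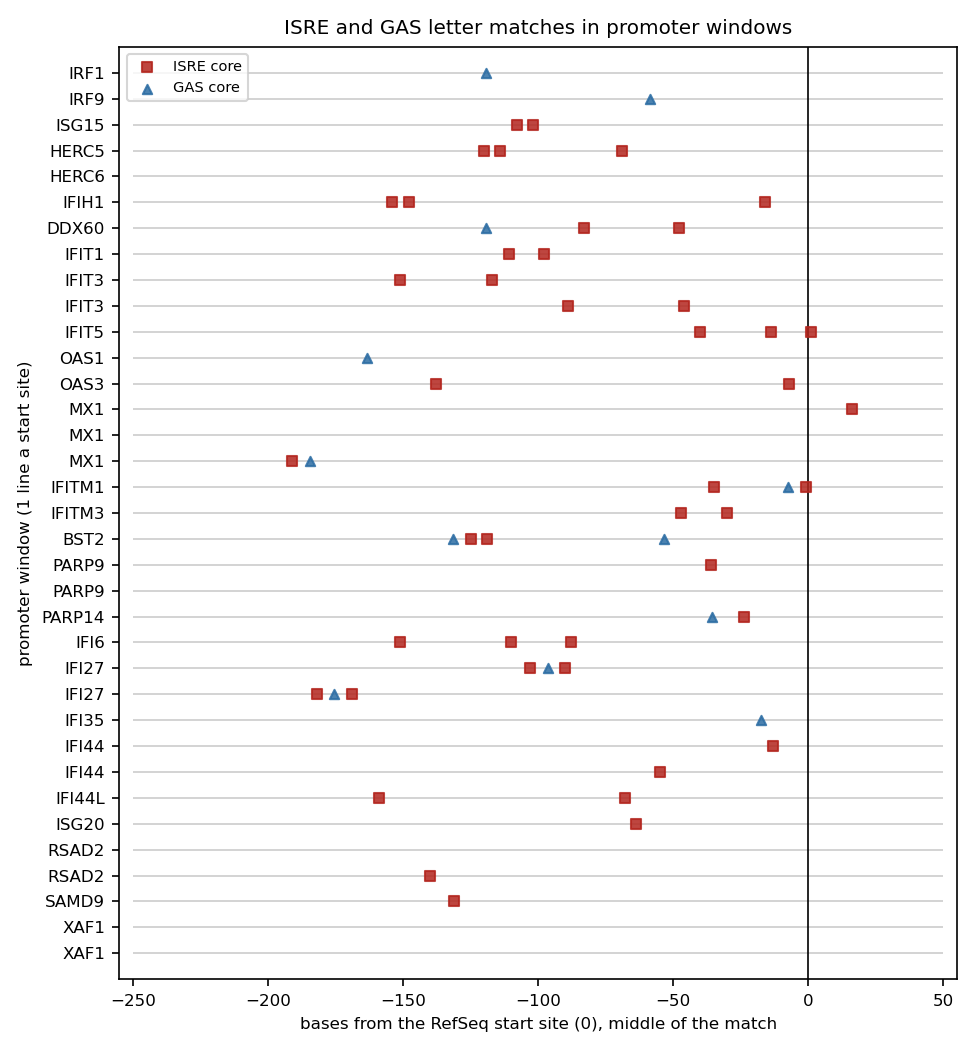
Letter matches to the ISRE core (squares) and the GAS core (triangles) in the 35 RefSeq promoter windows of 27 interferon response genes; the x axis is the distance in bases from the start site and each line is 1 window. Most matches lie before the start site, and 10 windows hold no ISRE core.

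A match of letters is a description of the window and not a site in use. The matches and the array values were not tested against each other.

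The arrays had a common scale, with a trimmed mean signal of 500.1 on each, and correlations over the tested genes between arrays ran from 0.952 to 0.979 (genes are not independent replicates). The ratio of 3′ to 5′ signal of ACTB, which rises in degraded RNA, was 8.79 on rhSTIP1 array 2 and between 2.45 and 2.74 on the other 3 arrays. The same ratio of GAPDH was 1.31 on rhSTIP1 array 2 and between 0.987 and 1.17 on the others. The 8 epithelial markers all lay above the level at which genes were tested, with signals from 299 to 15302. Of 10 measured leukocyte markers 1 reached it, CD79A, and the summed signal of the list was 364 and 381 on the control arrays against 346 and 476 on the rhSTIP1 arrays. PTPRC, which marks all leukocytes, had signals between 19.4 and 43.7. Of 6 fibroblast markers 3 reached the level, with sums of 603 and 327 on the control arrays against 565 and 364 on the rhSTIP1 arrays, and of 5 endothelial markers 1 reached it, PECAM1. The sums of those 5 were 206 and 224 on the control arrays against 359 and 259 on the rhSTIP1 arrays. They include single high values of genes under the level, VWF at 127 on rhSTIP1 array 1 and TIE1 at 52.8 on rhSTIP1 array 2. CDH5 was lower on both rhSTIP1 arrays, at 1.92 and 1.89 against 3.42 and 4.98 on the control arrays.

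No interferon response gene was called different between the groups. Genes were tested where the mean signal reached 69.4, which kept 12296 genes in all and 32 of the 34; MX2 and RSAD2 lay below it. In limma's test, adjusted over all 12296 genes, 0 of the 32 passed at 0.05 and 0 of all genes did (0%), and each of the 32 had an adjusted p of 0.999. At an unadjusted p under 0.05 there were 0 of the 32, against 3.68% of all genes, and the smallest was 0.162, for ISG20. A gene was also counted as separated where its groups had no overlapping arrays and differed by at least 1.5-fold. With the brightest probe set of each gene, that held for 0 of the 32 in either direction. The shares of all genes were 1.90% higher and 3.79% lower with rhSTIP1 (2.65% and 2.85% with each array centred on its median). Of the other probe sets at or above 69.4, a dimmer one of IFIT5 met this rule, lower with rhSTIP1, and is given below. Under that level a probe set of IFIH1 (−0.72) and one of RSAD2 (−0.78) met it too, both lower with rhSTIP1. For 1 gene taken alone, the smallest two-sided p from an exact permutation of these 4 arrays is 0.333.

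Without regard to size, the arrays did not overlap for 3 of the 32 genes. IRF1 and OASL were higher in both rhSTIP1 arrays, where 14.0% of all genes were, and USP18 was lower in both, where 14.9% were. The log2 fold change was above 0 for 18 of the 32 and below 0 for 14, and its median was 0.02 and its quartiles −0.10 and 0.11. Over all genes the median was also 0.02, with quartiles of −0.17 and 0.18. All fold changes are of log2(signal + 16), rhSTIP1 minus control, and understate the change of dim genes.

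A missed threshold does not show that the levels were alike, so the intervals were read as well. For 18 of the 32 genes (56.2%) the 95% interval of the log2 fold change lay wholly inside a 2-fold change in either direction, and the same held for 69.3% of all genes. The median half-width of the interval was 0.74 over the 32 genes and 0.63 over all genes. A rise of 2-fold or more lay inside the interval of 10 of the 32 and a fall of that size inside the interval of 9. Of all 12296 genes the same held for 1839 and 2177.

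**Figure D2:**
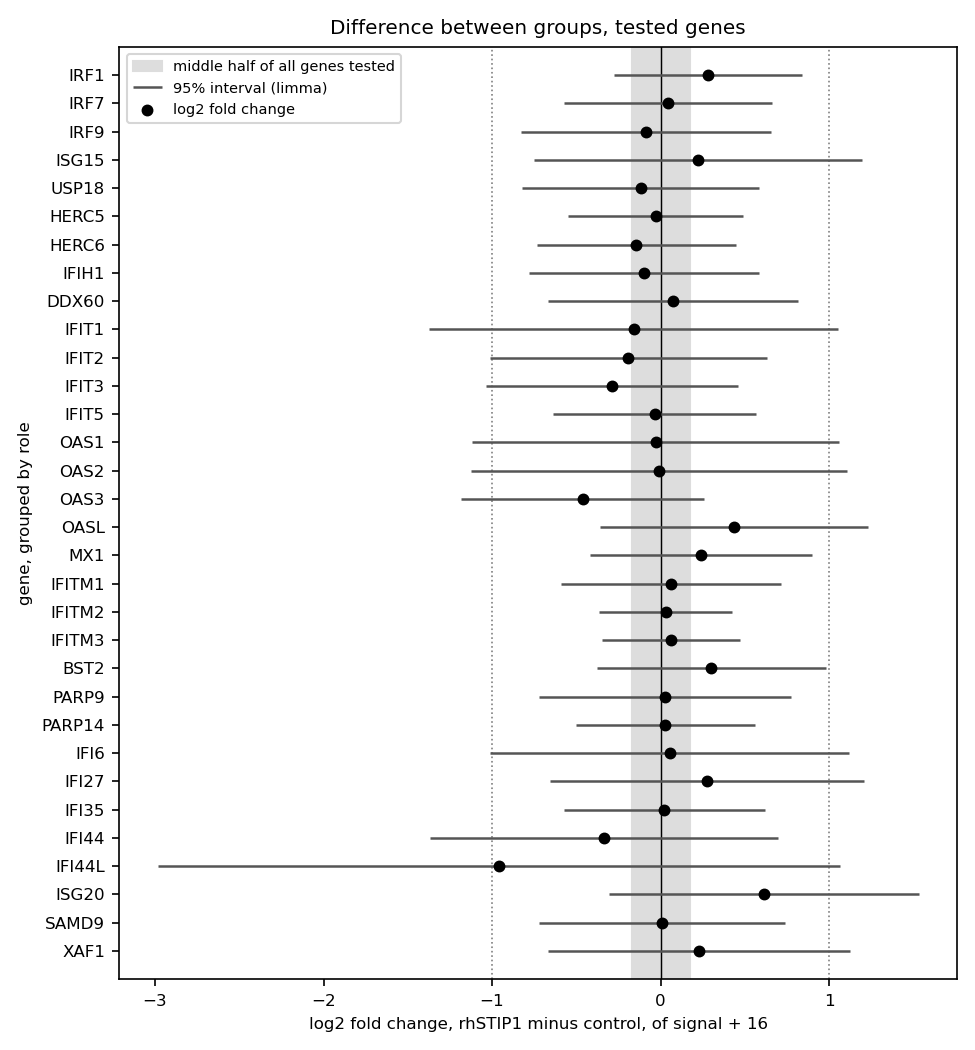
Log2 fold change of signal + 16, rhSTIP1 minus control (x axis), of the 32 tested interferon response genes (y axis), with limma's 95% interval as a line; the grey band is the range between the quartiles of all 12296 genes and dotted lines mark a 2-fold change. All 32 intervals cross 0, and that of IFI44L is the widest, from −2.99 to 1.06; it rests on a signal of 5.07 on 1 array.

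The transcription factors came first in order of role. IRF1, an early-induced activator of antiviral genes, had signals of 824 and 975 on the control arrays against 1037 and 1150.1 on the rhSTIP1 arrays, a log2 fold change of 0.28 ± 0.24 (SE). Both rhSTIP1 arrays lay above both controls, but by less than the 1.5-fold required. A second IRF1 probe set ran the other way, with 517 and 305 on the control arrays against 446 and 230.5 on the rhSTIP1 arrays, and there the groups overlapped.

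IRF9, the DNA-binding part of the complex that reads the ISRE, had signals of 757 and 629 on the control arrays against 866 and 487 on the rhSTIP1 arrays. The rhSTIP1 arrays were thus the highest and the lowest of the 4, and the fold change was −0.08 ± 0.32. IRF7, which amplifies interferon production, had 0.04 ± 0.27 with signals from 638 to 855, and its groups overlapped.

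ISG15, a ubiquitin-like protein joined to other proteins during the response, had signals of 982 and 769 on the control arrays against 1616 and 638 on the rhSTIP1 arrays. Array 1 of the treated group was the highest and array 2 the lowest, and the log2 fold change was 0.22 ± 0.42. Its partners showed less spread. USP18, the protease that removes ISG15 and dampens the receptor, had 163 and 175 on the control arrays against 151 and 158 on the rhSTIP1 arrays, or −0.12 ± 0.30. The groups did not overlap, although their nearest arrays, at 163 and 158, were closer than the controls were to each other. HERC5, the ligase that attaches ISG15, had signals from 2782 to 3382 and a fold change of −0.03 ± 0.22. HERC6, a related ligase, had −0.14 ± 0.25.

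Among the helicases, IFIH1, a sensor of long double-stranded RNA, had signals of 426 and 430.1 on the control arrays against 317 and 502 on the rhSTIP1 arrays, or −0.10 ± 0.29. The mean of all IFIH1 probe sets, the others being under the tested level, gave −0.455 ± 0.277. DDX60, a helicase linked to the same sensors, had 637 and 450.1 on the control arrays against 442 and 719 on the rhSTIP1 arrays, or 0.07 ± 0.32. For both genes rhSTIP1 array 2 was the highest of the 4 and rhSTIP1 array 1 the lowest, the reverse of the order seen for ISG15.

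The IFIT genes, neighbours on chromosome 10 whose proteins bind foreign RNA, all had a fold change below 0 in the fit to 4 arrays, but IFIT5 was above 0 with median centring or quantile normalization, and all 4 were above 0 without control array 1. IFIT1 had signals of 484 and 190.0 on the control arrays against 420.0 and 173 on the rhSTIP1 arrays, or −0.16 ± 0.52. Array 1 of each group was high and array 2 low, so the arrays of a group differed by over 2-fold while the groups overlapped. IFIT3 had 1352 and 826 on the control arrays against 1037 and 718 on the rhSTIP1 arrays, or −0.29 ± 0.32, and IFIT2 had −0.19 ± 0.35. In both genes the order of the 4 arrays was the same as in IFIT1. IFIT5, at −0.04 ± 0.26, did not follow that order, since its lowest signal, 728, was in control array 2 and its rhSTIP1 arrays stood at 810.3 and 856. Second probe sets gave −0.54 for IFIT3 and −0.77 for IFIT5, and for both of them the rhSTIP1 arrays lay below both controls. The IFIT3 one had 314 and 335 on the control arrays against 252 and 189.6 on the rhSTIP1 arrays. That of IFIT5 had 383 and 349 on the control arrays against 153 and 279 on the rhSTIP1 arrays. These probe sets were dimmer than those chosen and were not part of the test. The IFIT5 one met the rule for a separated gene, lower with rhSTIP1, while that of IFIT3 fell short of 1.5-fold.

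The OAS genes make the short nucleotide chains that switch on RNase L, and OAS1, OAS2 and OAS3 are neighbours on chromosome 12. OAS1 had signals of 185 and 87.7 on the control arrays against 177 and 87.5 on the rhSTIP1 arrays, or −0.03 ± 0.47. Arrays of the same number were almost equal, while those of the same group differed by over 2-fold, as in IFIT1. A second OAS1 probe set had 161 and 79.4 on the control arrays against 165 and 79.3 on the rhSTIP1 arrays, the same pattern on the same arrays.

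OAS3 had 855 and 501 on the control arrays against 439 and 505 on the rhSTIP1 arrays, or −0.46 ± 0.31. Control array 1 stood above the other 3, which lay within 439 and 505, and without it the fold change was −0.086. OAS2 had 77.2 and 92.6 on the control arrays against 134 and 50.6 on the rhSTIP1 arrays, close to the level at which genes were tested, or −0.01 ± 0.48. A second OAS2 probe set had 74.9 and 97.4 on the control arrays against 69.7 and 59.2 on the rhSTIP1 arrays. There both rhSTIP1 arrays lay below both controls, at −0.34, which is short of 1.5-fold. The mean of all OAS2 probe sets gave −0.243 ± 0.267. OASL, a relative without the enzyme activity, was at 94.5 and 86.2 on the control arrays against 129.6 and 126 on the rhSTIP1 arrays, or 0.44 ± 0.34, and its groups did not overlap. A second OASL probe set had 119 and 129 on the control arrays against 98.7 and 86.3 on the rhSTIP1 arrays. There both rhSTIP1 arrays lay below both controls, at −0.37, which is also short of 1.5-fold. The direction for OASL therefore depended on the probe set.

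MX1, a GTPase that traps viral particles, had signals of 371 and 346 on the control arrays against 517 and 351.4 on the rhSTIP1 arrays (0.24 ± 0.28). Here rhSTIP1 array 1 stood above the other 3 arrays. MX2, which acts on nuclear entry of retroviruses, had 50.9 and 65.4 on the control arrays against 58.8 and 5.73 on the rhSTIP1 arrays. RSAD2, or viperin, which makes a chain-terminating nucleotide, had 19.3 and 42.4 on the control arrays against 31.5 and 17.4 on the rhSTIP1 arrays. MX2 and RSAD2 lay below the tested level, so no fold change is given.

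The membrane proteins that block viral entry or release all had a fold change above 0, between 0.03 and 0.30, but IFITM2 and IFITM3 were below 0 with quantile normalization, and all 4 were below 0 without control array 2. Their groups overlapped. IFITM2 had signals of 21143 and 17246 on the control arrays against 20284 and 18752 on the rhSTIP1 arrays, or 0.03 ± 0.17, and IFITM3 had 0.06 ± 0.18, and these 2 had the smallest SE of the 32 genes. IFITM1 had 3141 and 2073 on the control arrays against 3019 and 2352 on the rhSTIP1 arrays, or 0.06 ± 0.28. These 3 genes are close copies of each other, and the probe sets of IFITM2 and IFITM3 are of the type marked by the maker as able to bind related transcripts, so their signals are not certain to be separate. BST2, or tetherin, which holds budding virus at the cell surface, had 1747 and 1066 on the control arrays against 1781 and 1596 on the rhSTIP1 arrays. Control array 2 was the low one, and the fold change was 0.30 ± 0.29.

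PARP9 and PARP14, ADP-ribosyltransferase family members on chromosome 3 that modulate STAT signalling, had log2 fold changes of 0.03 ± 0.32 and 0.03 ± 0.23. PARP9 ran against most of the group in its order over the arrays, with 603 and 938 on the control arrays against 618 and 949 on the rhSTIP1 arrays, so that array 2 of each group was the high one. A dimmer PARP9 probe set had the same order, with 91.9 and 151 on the control arrays against 88.6 and 143 on the rhSTIP1 arrays. PARP14 had the smallest range of the 32, with a highest signal 1.11-fold above the lowest.

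The remaining induced genes were effectors of several kinds. IFI27, a mitochondrial protein often used as a marker of interferon exposure, had signals of 4279 and 2949.5 on the control arrays against 6579 and 2809 on the rhSTIP1 arrays, or 0.27 ± 0.40. IFI6, which protects infected cells from death, had 849.7 and 526 on the control arrays against 1129.7 and 425 on the rhSTIP1 arrays, or 0.05 ± 0.46. In both, as in ISG15, the rhSTIP1 arrays were the highest and the lowest of the 4, with the controls between them.

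IFI44, first described as part of microtubular aggregates in infected liver, had 324 and 185 on the control arrays against 287 and 125 on the rhSTIP1 arrays, or −0.34 ± 0.44. Its neighbour on chromosome 1, IFI44L, was at 108 and 93.02 on the control arrays against 153 and 5.07 on the rhSTIP1 arrays, or −0.96 ± 0.87. It was the only tested gene of the 32 whose highest and lowest signals differed by at least 4-fold. The low value lay far under the tested level, so its size is not well measured, and the fold change was −1.73 with a pseudocount of 1 and −0.42 with 64. It was on rhSTIP1 array 2, the array with the high ACTB ratio. MX2 and RSAD2 were also lowest there. Of the 32 tested genes, 13 were lowest on rhSTIP1 array 2, 10 on control array 2, 5 on rhSTIP1 array 1 and 4 on control array 1. The same shares over all genes were not computed, so these counts do not set the 32 genes apart. The part of the RNA quality of rhSTIP1 array 2 in these values was not tested.

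ISG20, an exonuclease that degrades viral RNA, had the largest fold change above 0, at 0.61 ± 0.40. Its signals were 239 and 540.1 on the control arrays against 663 and 472 on the rhSTIP1 arrays, so 1 control lay above 1 treated array. The fold change was 0.050 without control array 1 and 1.18 without control array 2. A second ISG20 probe set had 284 and 413 on the control arrays against 554 and 397 on the rhSTIP1 arrays, or 0.43. Control array 1 was again the lowest and rhSTIP1 array 1 the highest.

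XAF1, a promoter of apoptosis induced by interferon, had 396 and 176 on the control arrays against 314 and 313 on the rhSTIP1 arrays, or 0.23 ± 0.38, with control array 2 alone low. SAMD9, a restriction factor of poxviruses, had 0.01 ± 0.31 and IFI35, a protein released as a danger signal, had 0.02 ± 0.26. The groups overlapped for these 3 genes.

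**Figure D3:**
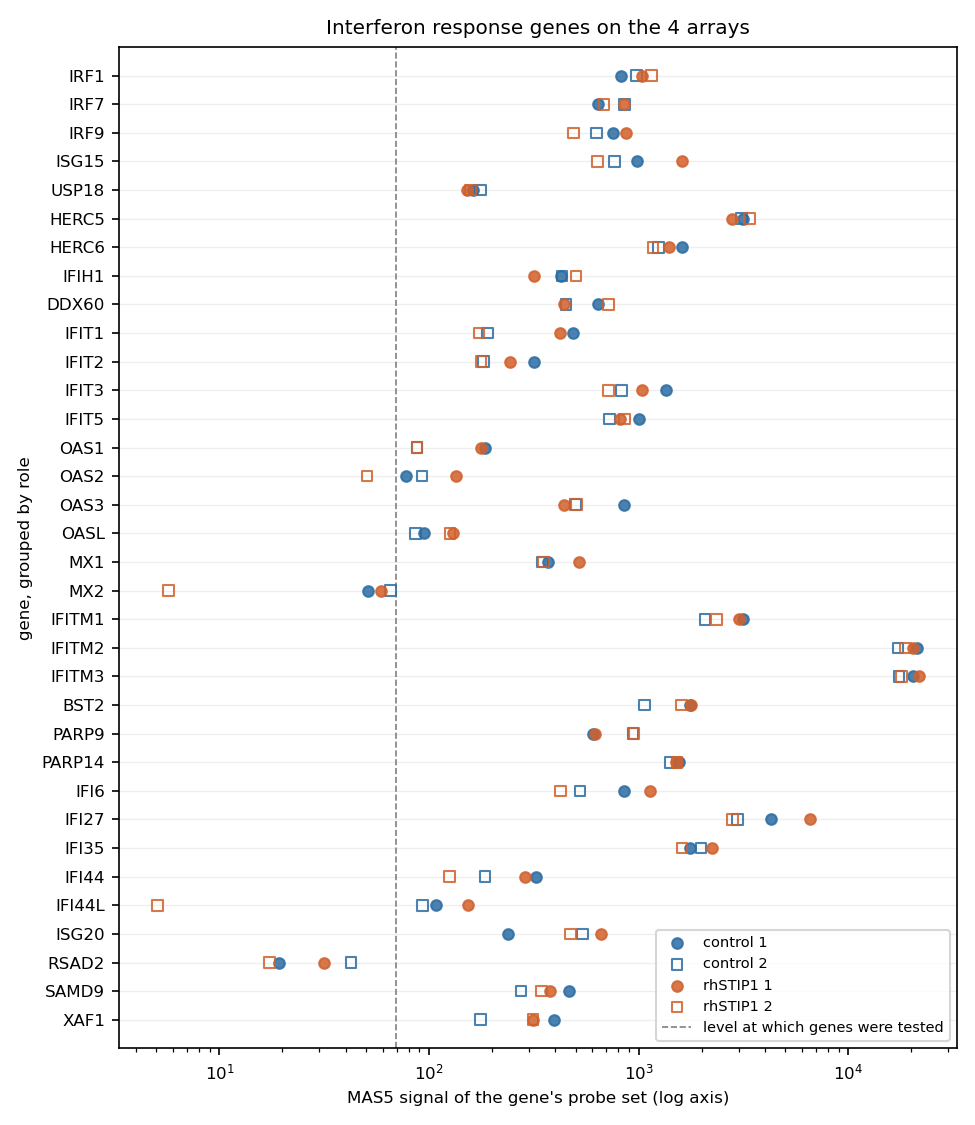
MAS5 signal (x axis, log scale) of the 34 measured interferon response genes (y axis) on control array 1 (blue circles), control array 2 (open blue squares), rhSTIP1 array 1 (orange circles) and rhSTIP1 array 2 (open orange squares); the dashed line is the tested level of 69.4. The colours overlap for most genes, and the lowest signals of IFI44L and MX2, 5.07 and 5.73, are both on rhSTIP1 array 2.

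For most of these genes the arrays of 1 group lay farther apart than the group means. The median absolute log2 difference was 0.43 between the controls and 0.45 between the rhSTIP1 arrays, against 0.11 between the groups. Over all genes the same medians were 0.28, 0.30 and 0.17. The gap between the controls exceeded the group difference for 25 of the 32 genes (78.1%) and for 64.7% of all genes, and the gap between the rhSTIP1 arrays did so for 24 (75.0%) and for 65.7% of all genes. Control array 2 lay below control array 1 for 24 of the 32, where 46.8% of all genes did, and rhSTIP1 array 2 lay below rhSTIP1 array 1 for 23, where 46.4% did. The median of these differences was −0.32 in the controls and −0.30 with rhSTIP1, against 0.03 and 0.04 over all genes. The highest of the 4 signals was on an array numbered 1 for 25 of the 32 genes, 13 of them control array 1 and 12 rhSTIP1 array 1. For this last count the share of all genes was not computed.

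Taken by array number, the treated array lay above its control in 1 pair and below it in the other for 19 of the 32 genes (59.4%), and for 45.3% of all genes. The median of rhSTIP1 array 1 minus control array 1 was −0.05 and that of rhSTIP1 array 2 minus control array 2 was 0.005. IFI44L had 0.45 in the first pair and −2.37 in the second, ISG15 had 0.71 and −0.26, and ISG20 had 1.41 and −0.19. XAF1 ran the other way, at −0.32 and 0.78. The labels do not say that a number marks a shared culture or day.

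**Figure D4:**
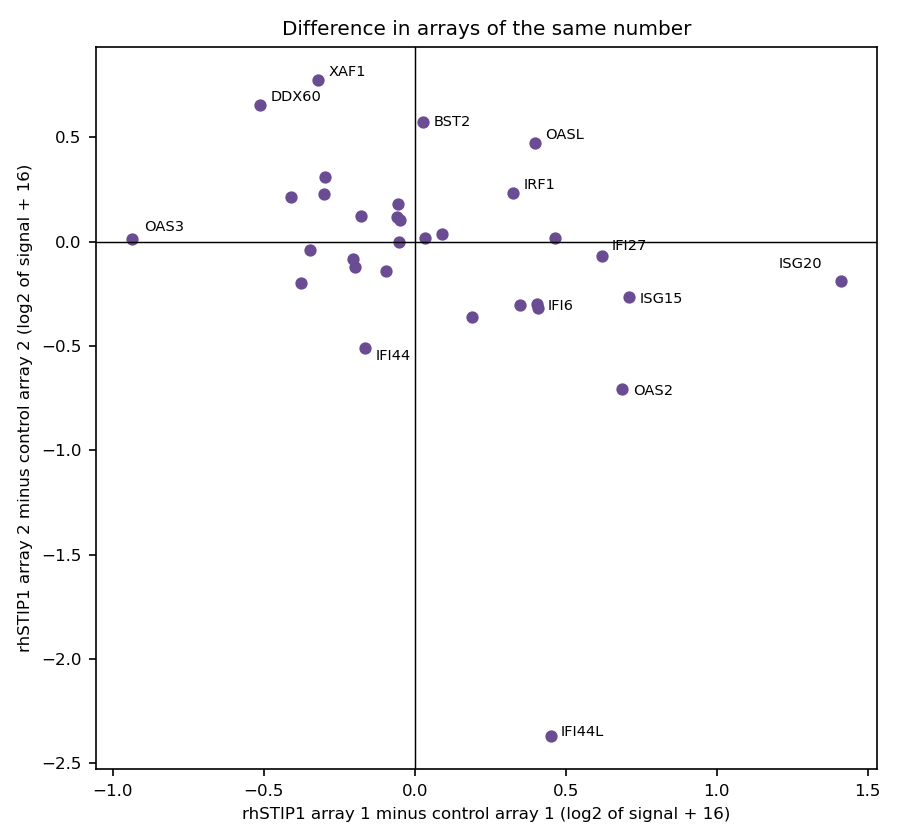
Log2 difference of signal + 16 between rhSTIP1 and control in the arrays numbered 1 (x axis) and in those numbered 2 (y axis), 1 point for each of the 32 tested interferon response genes. Points in the upper left and lower right parts of the plot, 19 in all, differ in sign between the pairs, and IFI44L lies lowest at 0.45 and −2.37.

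The counts depended on single arrays. Without rhSTIP1 array 2 the separated genes were IFI27, ISG15, IFI6 and ISG20, all 4 higher and 0 lower, against 3.87% of all genes higher and 7.71% lower, and the median was 0.21. Without rhSTIP1 array 1 there were 0 higher and 5 lower, IFI6, IFIT1, IFI44, IFI44L and OAS2, against 5.90% of all genes higher and 6.69% lower, and the median was −0.10. IFI6 thus stood on opposite sides in these 2 settings. Without control array 1 the count was 2 higher, BST2 and XAF1, and 0 lower, against 3.32% of all genes higher and 5.32% lower, and the median was 0.17. Without control array 2 it was 1 higher, ISG20, and 4 lower, IFIT3, OAS3, IFIT1 and IFI44, against 7.69% of all genes higher and 8.41% lower, and the median was −0.10. With 1 array left out fewer values need to be apart, and 0 of the 32 passed the adjusted test in any of these settings.

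Probe sets of 1 gene did not always give the same direction. Of the 10 genes with at least 2 probe sets at or above the tested level, 5 had fold changes of 1 sign (IFIT3, IFIT5, ISG20, OAS2 and XAF1) and 5 did not (IRF1, OAS1, OASL, PARP9 and SAMD9).

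The rest of the pathway was described from 5 further lists. Of 17 interferon ligand genes with a probe set, 1 reached the tested level, IFNE, an interferon of epithelia, with 153 and 66.2 on the control arrays against 93.2 and 73.5 on the rhSTIP1 arrays. The signals of the ligand list ranged from 0.438 to 153. IFNB1, the interferon that infected epithelial and stromal cells commonly make first, had 4.10 and 6.97 on the control arrays against 2.26 and 25.1 on the rhSTIP1 arrays, below the tested level on all 4 arrays.

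Among 17 tested receptors and signalling genes the median log2 fold change was −0.004, and 1 was separated higher and 1 lower. These were both inhibitors of JAK kinases that cytokines induce. SOCS1, which dampens the interferon receptors, had signals of 105 and 184 on the control arrays against 541 and 252 on the rhSTIP1 arrays, or 1.31 ± 0.43 (unadjusted p = 0.0164 and adjusted p = 0.999 in limma). Both treated arrays lay above both controls, while rhSTIP1 array 1 was itself more than 2-fold above rhSTIP1 array 2, and the fold change was 0.79 without the former and 1.84 without the latter. SOCS3, which acts mainly on receptors of the interleukin-6 family, had 448 and 506 on the control arrays against 276 and 258 on the rhSTIP1 arrays, or −0.80 ± 0.25 (unadjusted p = 0.0144 and adjusted p = 0.991 in limma). The mean of all SOCS3 probe sets gave −0.36 ± 0.31, which is short of 1.5-fold. Neither passed over all genes, and separated genes made up 1.90% (higher) and 3.79% (lower) of those tested.

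Of 13 tested sensors of foreign nucleic acid, 0 were separated, against 1.90% of all genes higher and 3.79% lower, and the median was 0.06. IKBKE, a kinase that activates interferon regulatory factors, had 249 and 255 on the control arrays against 171 and 194 on the rhSTIP1 arrays, or −0.43 ± 0.28. TRIM25, a ligase that helps an RNA sensor signal, had 773 and 2195 on the control arrays against 1867 and 2427 on the rhSTIP1 arrays, or 0.70 ± 0.45. Control array 1 alone was low for TRIM25, whereas for IKBKE both rhSTIP1 arrays lay below both controls, as for 14.9% of all genes. The mean of all probe sets gave −0.625 ± 0.235 for IKBKE, which is past 1.5-fold, and 0.454 ± 0.32 for TRIM25.

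Another 26 tested interferon-stimulated genes had a median of −0.008, 13 above 0 and 13 below. Of them 0 were separated higher and 1 lower, against 1.90% and 3.79% of all genes. The lower gene was RTP4, a chaperone of membrane receptors, with 144 and 132 on the control arrays against 78.2 and 69.8 on the rhSTIP1 arrays. Its fold change was −0.77 ± 0.35 (unadjusted p = 0.0604 and adjusted p = 0.999 in limma). UBE2L6, the enzyme that passes ISG15 to its ligases, had 2554 and 2238 in the controls and 3240.3 and 2785 among the treated arrays. Its fold change was 0.33 ± 0.23, and both treated arrays lay above both controls, as for 14.0% of all genes.

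Of 17 tested genes of antigen presentation and of interferon gamma targets, 0 were separated and the median was 0.07. Separated genes made up 1.90% (higher) and 3.79% (lower) of all genes tested. IDO1, an enzyme that consumes tryptophan, had 21008 and 16438 on the control arrays against 14173 and 15600.0 on the rhSTIP1 arrays, or −0.32 ± 0.18. WARS1, the tryptophanyl-tRNA synthetase, had 4872 and 9371 on the control arrays against 8088 and 9264 on the rhSTIP1 arrays, or 0.36 ± 0.31. The mean of all WARS1 probe sets gave 0.155 ± 0.309. For IDO1 both rhSTIP1 arrays lay below both controls, as for 14.9% of all genes, by a gap smaller than that between the controls. For WARS1 control array 1 alone was low. Over these 5 lists, 0 genes passed the test adjusted over all genes.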

How the data were processed

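Total RNA of 4 SKOV3 samples was measured on 4 Affymetrix arrays. The authors deposited linear intensity values per probe set, and the submitters' processing notes name MAS5 and Affymetrix Expression Console 1.1. Detection calls were not used here. Of 54613 probe sets other than 62 controls, 41091 had exactly 1 gene symbol, 1801 had several and 11721 had none. Among probe sets of 1 gene the brightest on average was used. Groups were compared with limma 3.58.1 in R 4.3.3 (lmFit, then eBayes with trend) on log2(signal + 16). Tests were two-sided, p-values were adjusted by Benjamini-Hochberg over all genes tested, and the fit had 2 residual and 5.56 prior degrees of freedom. The steps were tested on simulated data. All measured members were named and, from each further list, the 2 tested genes with the smallest p. IFNB1, CD79A, PTPRC, PECAM1, VWF, TIE1 and CDH5 were named after their values were seen. Members and lists were chosen with earlier results of these data known. Alternatives covered the pseudocount, filter, scaling, choice of probe set, moderation, the replicate number as a block and leaving out each array. Precision is limited by there being 2 arrays in each group.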

Additional observations from a re-analysis of the deposited data

How the results depend on the processing

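The calls, separated counts, medians of the 32 genes and fold changes of named genes were recomputed under 14 alternatives, with no value for the dimmer genes under the stricter filter. The counts of intervals, overlaps, gaps between arrays and signs within pairs were not recomputed, nor were the medians of the further lists. In all of them 0 interferon response genes passed the adjusted test, and in those that kept all 4 arrays 0 were separated in either direction. Over all genes, 1 gene passed with a filter at the 70th percentile, and 0 to 6 passed with an array left out (6 without control array 2). With the replicate number as a replicate block 247 of 12296 genes passed but 0 of the 32, and ISG20 had the smallest unadjusted p among them, 0.0543. Deviations of same-numbered arrays correlated at 0.362 over all genes and 0.19 over the 32, and with 2 arrays a group this does not settle whether the numbers pair the samples. With an array left out, 0 to 4 of the 32 were separated higher and 0 to 5 lower, against 3.32 to 7.69% and 5.32 to 8.41% of all genes; the lone array of a group is then assumed to vary like the other group's.

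The sign of the fold change depended on the array left out for 27 of the 32 genes. The other 5 kept theirs, IRF1 from 0.16 to 0.40, USP18 from −0.17 to −0.068, OAS3 from −0.84 to −0.086, OASL from 0.38 to 0.49 and ISG20 from 0.050 to 1.18. Leaving out control array 2 gave the low end and leaving out control array 1 the high end for these: HERC6 ran from −0.33 to 0.044, IFIT1 from −0.80 to 0.48, IFIT2 from −0.56 to 0.18, IFIT3 from −0.64 to 0.063, IFIT5 from −0.26 to 0.19, OAS1 from −0.50 to 0.45, IFITM1 from −0.24 to 0.36, IFITM2 from −0.12 to 0.18, BST2 from −0.051 to 0.65, PARP14 from −0.043 to 0.10, SAMD9 from −0.36 to 0.37 and XAF1 from −0.32 to 0.78. With these ends exchanged, IRF7 ran from −0.16 to 0.25 and PARP9 from −0.29 to 0.34. Leaving out rhSTIP1 array 1 gave the low end and leaving out rhSTIP1 array 2 the high end for these: IRF9 ran from −0.49 to 0.32, ISG15 from −0.44 to 0.88, OAS2 from −0.59 to 0.58, MX1 from −0.027 to 0.51, IFITM3 from −0.077 to 0.20, IFI6 from −0.64 to 0.74, IFI27 from −0.34 to 0.89, IFI35 from −0.21 to 0.26, IFI44 from −0.89 to 0.21 and IFI44L from −2.46 to 0.54. With these exchanged, HERC5 ran from −0.17 to 0.11, IFIH1 from −0.42 to 0.22 and DDX60 from −0.27 to 0.41. Of genes from the further lists, IFNE ran from −0.77 to 0.27, TRIM25 from −0.044 to 1.44 and WARS1 from −0.11 to 0.83.

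Other settings changed the sign of 10 genes. The largest main fold change among them was 0.28, for IRF1. Median centring gave 0.028 for HERC5, 0.020 for IFIT5, 0.027 for OAS1 and 0.047 for OAS2. Quantile normalization gave 0.0023 for IFIT5, 0.049 for OAS1, 0.059 for OAS2, −0.083 for IFITM2 and −0.026 for IFITM3. The mean of all probe sets gave −0.0066 for IRF1, 0.078 for HERC6, −0.017 for PARP9 and −0.20 for SAMD9, and a pseudocount of 64 gave 0.019 for OAS2. Leaving out probe sets of the cross-binding type gave no value for IFITM2 and IFITM3. The causes were not tested.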
